A study of Rattus norvegicus with 6 samples.

Results

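The Rab GTPases are the proteins described here, as read from their transcripts. They were taken as all protein-coding models of the deposited expression table whose symbol is Rab with a number and at most 1 letter from a to d, which gave 56 of 33350 gene models. The 6 RNA libraries came from rat cells that the labels call PC12, an established line of adrenal pheochromocytoma origin. In the 3 EN libraries the cells had been given exosomes, small vesicles shed by cells, from endothelial cells with high expression of netrin-1 (NTN1), an axon guidance protein. In the 3 EC libraries the exosomes came from control endothelial cells, so both groups received endothelial exosomes and no library of untreated cells was among those analysed. The labels give no dose, no time of exposure, and no word on whether the 3 replicates of a group were separate cultures, so the p-values reflect only how far these libraries vary, which may be technical.

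Rab proteins are small GTPases that act as switches on the membranes of vesicles and organelles. In the GTP-bound form a Rab holds effector proteins (tethers, motors, sorting factors) on its membrane, a guanine nucleotide exchange factor (GEF) loads GTP, a GTPase-activating protein (GAP) ends the active state, and a GDP dissociation inhibitor (GDI) carries the prenylated Rab back through the cytosol. Each Rab marks a few compartments, so the members are grouped below by the route they serve, namely endocytosis, recycling to the surface, and secretion, which is split into traffic at the endoplasmic reticulum and Golgi and late steps of exocytosis. Neuroendocrine cells are known for regulated exocytosis, in which Rab3 and Rab27 proteins act on secretory vesicles. A Rab's transcript level says nothing of how much of the protein is in the active form, which was not measured here.

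The libraries held 15296193 to 19626012 reads, with the 3 EN libraries the deepest. Levels are FPKM, reads scaled to gene length and library size, so they can be compared between genes. The markers of the labelled cell type were low. Of 11 genes of PC12 or chromaffin cells, 3 had a mean of at least 1 FPKM (Th, Slc18a2 and Snap25, none above 4.41), Hand2 had no read, and Chga and Chgb had 7 and 5 reads over all libraries. Snap25 was lower in EN (limma adjusted p = 0.017, and 0.069 at most with 1 library left out), and Th and Slc18a2 did not pass. The 11 genes summed to 10.1 to 10.5 FPKM in EN libraries and 11.8 to 12.6 FPKM in EC libraries. All 7 Schwann or glial genes had a mean of at least 1 FPKM, with Sox10 at 103.6 FPKM, and summed to 355.9 to 388.8 FPKM in EN libraries and 398.1 to 410.8 FPKM in EC libraries. Of these 7 genes, 4 were lower and 1 was higher in EN at an adjusted p under 0.05 (limma). The 5 endothelial genes matched in the table (Cdh5, Kdr, Tek, Vwf and Tie1) summed to 3.05 to 3.43 FPKM in EN libraries and 3.01 to 3.62 FPKM in EC libraries. The 5 fibroblast genes summed to 63.6 to 67.8 FPKM in EN libraries and 64.8 to 67.7 FPKM in EC libraries, nearly all of it from Pdgfra, with Lum at no read. The part of any shift in cell make-up in the Rab results was not tested, and in bulk RNA fewer cells of a type and less RNA per cell cannot be told apart.

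Most Rab genes were expressed. Of the 56, 44 had a mean of at least 1 FPKM over the 6 libraries and were tested, and 31 had a mean of at least 10 FPKM. The 7 with a mean over 100 FPKM were Rab7a, Rab1a, Rab10, Rab2a, Rab5c, Rab21 and Rab6a, and they held 52.9% of the summed FPKM of all 56. They include Rabs of the late endosome, the early endosome, the Golgi and the route to the surface. Summed over the 56 genes, the level was 1929.8, 1946 and 1931 FPKM in EN replicates 1 to 3, against 1957, 1985 and 1938 FPKM in EC replicates 1 to 3. Those totals overlapped between the groups, and Rab genes took 0.403% to 0.410% of all reads in EN libraries and 0.413% to 0.418% in EC libraries.

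**Figure D1:**
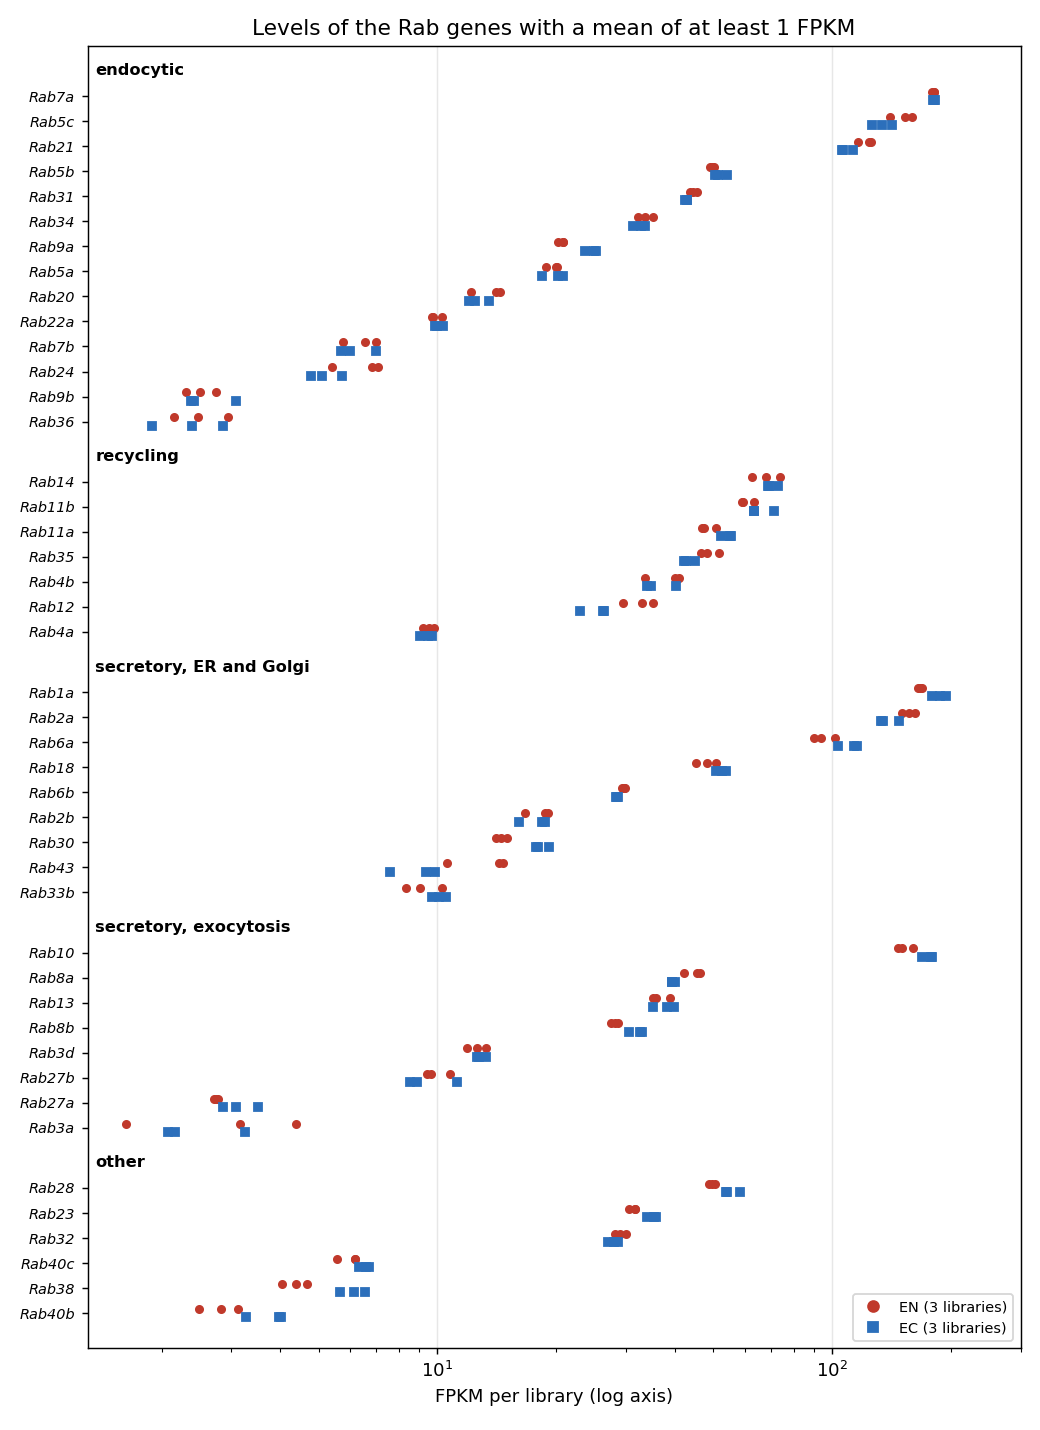
FPKM of the 44 tested Rab genes in each library (x axis, log scale), grouped by route and ordered by mean level, with red circles for the 3 EN libraries and blue squares for the 3 EC libraries. The mean levels span 2.45 FPKM (Rab36) to 180.9 FPKM (Rab7a), and for most of them the libraries of both groups lie close together.

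The 12 members under 1 FPKM were not tested. They include several Rabs that are best known from neurons, epithelia or regulated secretion: Rab3b, Rab3c, Rab26 and Rab37 of secretory granules, Rab15, Rab17 and Rab25 of epithelial or neuronal endosomes, Rab19, Rab33a and Rab39a of the Golgi and endosomes, and Rab42 and Rab44. Together they had 290 reads, their highest mean was 0.452 FPKM (Rab33a), and 7 of them had 10 reads or fewer over all libraries. Rab3c had 0 reads, a count that allows a level of up to 0.0203 FPKM (3 reads over the 6 libraries, counting error only). Rab37 had 1 read in the EN libraries and 8 in the EC libraries, too few to read a difference from. No member lay near the expression minimum: Rab33a and Rab26 were the highest below it, and Rab36 and Rab9b, at 2.45 and 2.57 FPKM, the lowest above it.

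The comparison of EN with EC asks whether exosomes from netrin-1 high endothelial cells left the recipient cells with other levels of traffic genes than control exosomes did. Of the 44 tested Rab genes, 9 passed at an adjusted p under 0.05 (limma, with Benjamini-Hochberg adjustment over all 12198 tested genes), 2 higher and 7 lower in EN. This is 20.5% of them, against 14.4% of all tested genes (7.24% higher and 7.14% lower). The genes that rose were Rab12 and Rab8a, and those that fell were Rab38, Rab30, Rab9a, Rab10, Rab8b, Rab1a and Rab23. All 9 changes were small: Rab38 had the largest, 1.40-fold lower in mean FPKM, and Rab12 was 1.29-fold higher. The median log2 change over the 44 was -0.02, against -0.0028 over all tested genes, and the median size of the change was 0.12, against 0.13. Log2 changes are EN minus EC after 1 FPKM was added to each value, so those of low genes are understated, while folds are ratios of mean FPKM.

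The calls depend on which libraries entered, while the direction of the 9 called changes did not. Without EN replicate 1, EN replicate 2 or EC replicate 2, 0 of the 44 passed in limma. The lowest limma adjusted p among the 9 genes was then 0.055, 0.051 and 0.064. Without EC replicate 3 only Rab30 passed. In those fits the count over all 12198 genes dropped too, to 446, 344, 338 and 408, against 1754 with all libraries. Without EN replicate 3 there were 13 calls, of which 8 were among the 9, and without EC replicate 1 there were 9, of which 7 were among the 9. Over all genes these fits called 2059 and 1616. With 1 library left out the log2 change ran from -0.33 to -0.28 for Rab30 and from -0.23 to -0.17 for Rab10, and none of the 9 changed sign. With no expression filter only Rab30 and Rab9a passed, and with no variance trend only these and Rab38. Over all genes those settings called 866 of 20495 and 1019 of 12198. The test has other settings in which it calls more: limma voom on the reads called 15, 7 higher and 8 lower, with all 9 among them. Over all 12198 genes voom called 2347, 1387 higher and 960 lower. With quantile normalization 9 passed (1740 over all genes), 3 higher and 6 lower, and 7 of them were among the 9.

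**Figure D2:**
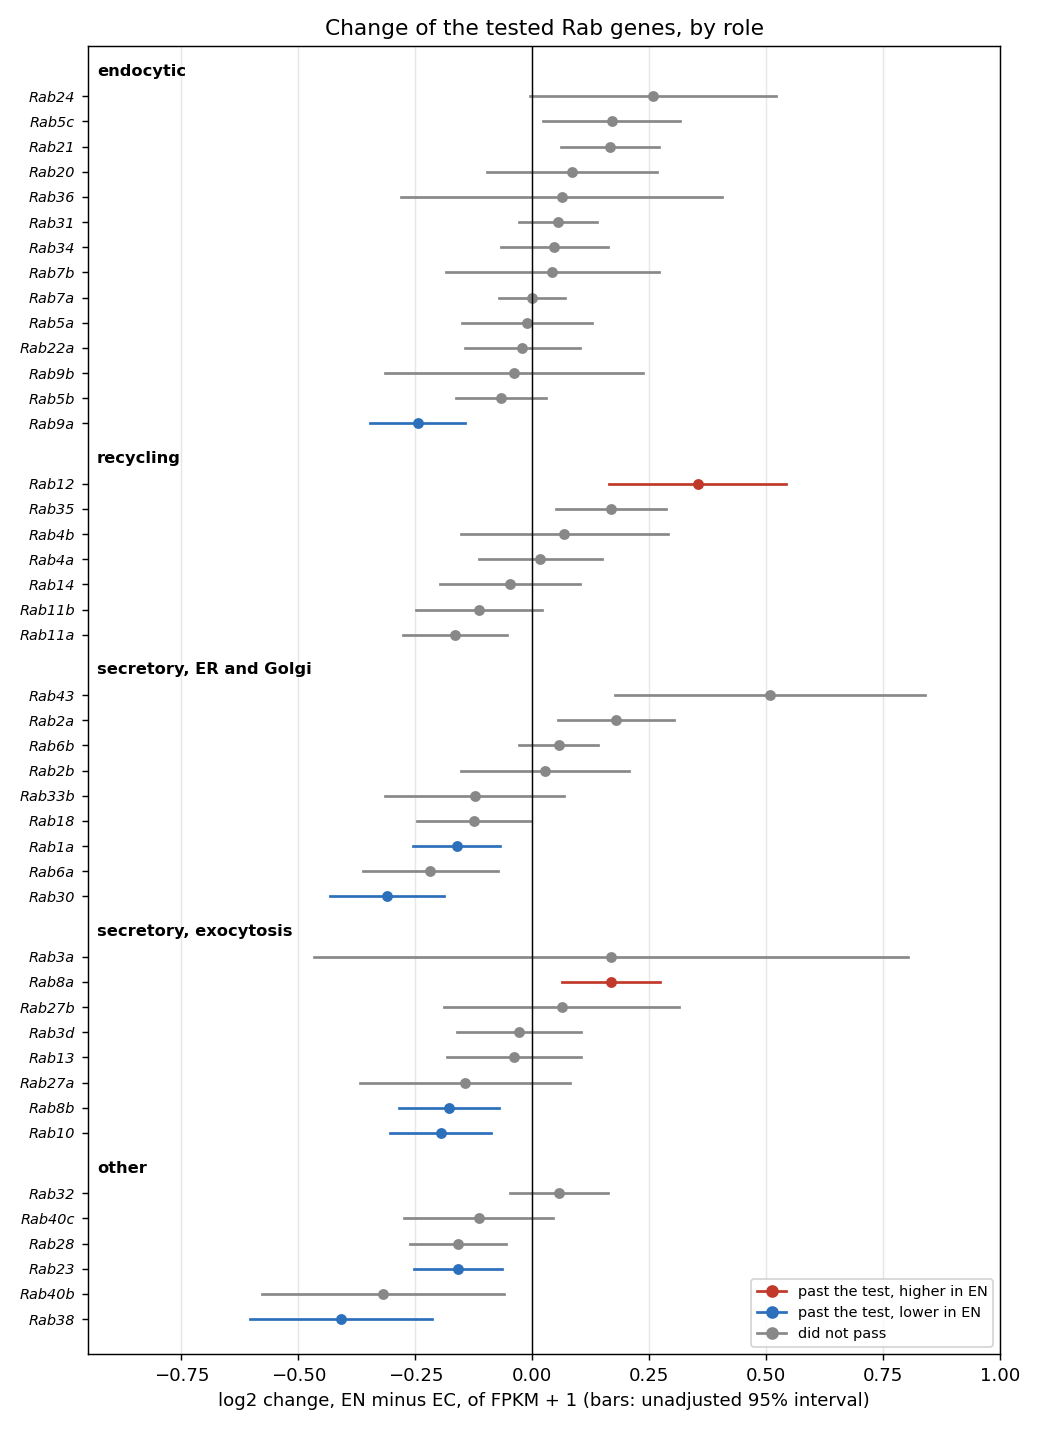
Log2 change, EN minus EC, of each of the 44 tested Rab genes (points, x axis) with its unadjusted 95% interval (bars), grouped by route, red for genes past the test and higher in EN, blue for genes past it and lower, grey for the rest. Every change lies between -0.41 (Rab38) and 0.51 (Rab43), and 35 of the 44 genes did not pass.

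In 23 of the 44 genes (52.3%) the 3 EN libraries lay entirely on one side of the 3 EC libraries, 8 above and 15 below. Among all tested genes this held for 37.9%, 18.6% above and 19.4% below. By route, the groups stood apart in 4 of 14 endocytic genes, 3 of 7 recycling genes, 7 of 9 genes of the endoplasmic reticulum and Golgi, 4 of 8 genes of exocytosis and 5 of 6 of the rest.

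Of the 14 tested endocytic Rabs, 1 fell, none rose and 13 did not pass, with a median log2 change of 0.04, 8 changes positive and 6 negative. The 1 that fell was Rab9a, which serves the return of mannose 6-phosphate receptors from late endosomes to the Golgi (Rnor_6.0 chromosome X, 29525256 to 29547294). Rab9a was at 20.8, 20.2 and 20.8 FPKM in EN replicates 1 to 3, against 23.7, 24.9 and 25.2 FPKM in EC replicates 1 to 3. Every EN library was below every EC library, with means of 20.6 ± 0.350 and 24.6 ± 0.800 FPKM (SD, n = 3 each). Its log2 change was -0.25 with an SE of 0.043 (limma, adjusted p = 0.018). With 1 library left out the adjusted p of Rab9a reached 0.075 (without EN replicate 2), and it was over 0.05 in 4 of those 6 fits.

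Rab7a, which drives fusion of late endosomes with lysosomes, was the highest Rab gene of all and was level. It was at 181.5, 179.5 and 181.5 FPKM in EN libraries, against 182.3, 181.0 and 179.7 FPKM in EC libraries. The groups overlapped, and the 95% interval of its log2 change was -0.07 to 0.07. Its paralogue Rab7b averaged 6.44 FPKM in EN and 6.23 FPKM in EC and did not pass.

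The early endosome Rabs differed among themselves. Rab5c, one of 3 paralogues that govern homotypic fusion of early endosomes, was at 159.8, 152.6 and 140.5 FPKM in EN libraries, against 141.8, 134.1 and 126.2 FPKM in EC libraries. Its lowest EN library was just below its highest EC library, and it did not pass (log2 change 0.17, adjusted p = 0.110). Rab5b averaged 49.6 FPKM in EN and 52.0 FPKM in EC, and Rab5a 19.6 FPKM in EN and 19.8 FPKM in EC, and neither passed. Rab21, which carries integrins from the surface, was at 123.9, 116.5 and 125.6 FPKM in EN libraries, against 106.6, 113.2 and 106.2 FPKM in EC libraries. All EN libraries were above all EC libraries, and the gene missed the threshold narrowly (log2 change 0.17, SE 0.045, adjusted p = 0.051). Of the remaining tested members of the route, Rab31, Rab34, Rab20, Rab22a, Rab24, Rab9b and Rab36, none had an adjusted p under 0.16, with levels from 2.45 FPKM (Rab36) to 43.6 FPKM (Rab31).

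Among recycling Rabs, 1 of 7 tested genes rose, none fell and 6 did not pass, with a median log2 change of 0.02. Rab12, which directs transferrin receptor from recycling endosomes to degradation (chromosome 9, 114684039 to 114709546), was at 32.9, 35.1 and 29.4 FPKM in EN libraries, against 26.3, 26.4 and 23.0 FPKM in EC libraries. The groups did not overlap, although EN replicate 3 was nearer to the EC libraries than the other EN libraries were. The means were 32.5 ± 2.85 FPKM in EN and 25.2 ± 1.95 FPKM in EC (SD, n = 3 each). Its log2 change was 0.35 with an SE of 0.080 (limma, adjusted p = 0.033, or 0.104 once EN replicate 2 was left out). The Rab12 call was lost in 4 of the 6 fits with 1 library left out.

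The Rab11 paralogues, which define the recycling endosome, were both lower in their means. Rab11a was at 46.8, 50.8 and 47.3 FPKM in EN libraries, against 52.2, 55.6 and 55.1 FPKM in EC libraries. The groups did not overlap, and the gene did not pass (log2 change -0.17, adjusted p = 0.059). Rab11b was at 59.2, 63.4 and 59.5 FPKM in EN libraries, against 63.4, 71.1 and 63.2 FPKM in EC libraries, with overlap between the groups and an adjusted p of 0.212. Rab14, which works between the Golgi and endosomes and was the highest of the route, was at 62.6, 68.0 and 73.9 FPKM in EN libraries, against 68.8, 73.1 and 69.2 FPKM in EC libraries. Its EN libraries spanned its EC libraries on both sides. Rab35, a Rab of fast recycling and cytokinesis, averaged 48.7 ± 2.60 FPKM in EN and 43.3 ± 1.40 FPKM in EC (SD, n = 3 each) and did not pass (adjusted p = 0.067). The fast recycling paralogues Rab4a and Rab4b had adjusted p of 0.862 and 0.653.

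Of the 9 tested Rabs of the endoplasmic reticulum and Golgi, 2 fell, none rose and 7 did not pass, with a median log2 change of -0.12. Rab30, a Golgi Rab (chromosome 1, 157573324 to 157660008), was at 14.1, 15.04 and 14.5 FPKM in EN libraries, against 17.9, 19.2 and 17.7 FPKM in EC libraries. The EN libraries were all below the EC libraries, with means of 14.5 ± 0.480 and 18.3 ± 0.779 FPKM (SD, n = 3 each). The log2 change was -0.31 (SE 0.051, limma adjusted p = 0.015), and the adjusted p was 0.064 without EC replicate 2 and over 0.05 in 3 of the 6 fits with 1 library left out. Rab1a, which takes cargo from the endoplasmic reticulum to the Golgi (chromosome 14, 104475082 to 104501020), was at 164.6, 167.3 and 169.2 FPKM in EN libraries, against 179.3, 194.2 and 187.5 FPKM in EC libraries. Here too every EN library was below every EC library, a fall in the mean of 1.12-fold (log2 change -0.16 with an SE of 0.039, limma, adjusted p = 0.040). That p was 0.134 once EC replicate 2 was left out, and the call was lost in 4 of the 6 fits.

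Other Golgi Rabs stood apart without passing. Rab2a, which tethers membranes at the Golgi, was at 161.9, 156.9 and 150.0 FPKM in EN libraries, against 147.4, 134.1 and 132.7 FPKM in EC libraries. All EN libraries were above all EC libraries, with a log2 change of 0.18 and an adjusted p of 0.064. Rab43, a Golgi Rab with the largest change of all tested members, was at 14.3, 14.6 and 10.6 FPKM in EN libraries, against 9.87, 9.38 and 7.56 FPKM in EC libraries. Its groups did not overlap, but its lowest EN library was close to its highest EC library, and it did not pass (log2 change 0.51, SE 0.140, adjusted p = 0.054). Rab6a, which drives retrograde traffic through the Golgi, averaged 95.2 ± 5.97 FPKM in EN and 110.8 ± 6.38 FPKM in EC (SD, n = 3 each, adjusted p = 0.056), while its paralogue Rab6b averaged 29.7 FPKM in EN and 28.5 FPKM in EC. Rab18, Rab33b and Rab2b had adjusted p of 0.148, 0.332 and 0.836. The limma adjusted p of Rab21, Rab28, Rab11a and Rab35, outside this route, also lay between 0.05 and 0.07. The share of all tested genes in that range was not counted, so nothing is read from these near misses.

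The Rabs of exocytosis held 3 of the 9 calls. Of 8 tested, 1 rose, 2 fell and 5 did not pass, with a median log2 change of -0.03. Rab10, which brings vesicles such as those of the glucose transporter GLUT4 to the surface (chromosome 6, 27668403 to 27721120), was at 147.2, 150.4 and 160.7 FPKM in EN libraries, against 168.6, 179.1 and 177.5 FPKM in EC libraries. All EN libraries were below all EC libraries, with means of 152.8 ± 7.07 and 175.0 ± 5.68 FPKM (SD, n = 3 each). Rab10 changed by -0.20 on the log2 scale with an SE of 0.046 (limma, adjusted p = 0.035). Leaving out EC replicate 2 gave 0.122, and the call was lost in 4 of the 6 fits.

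The paralogues Rab8a and Rab8b, which both act between the Golgi and the surface and in the building of cilia, passed in opposite directions. Rab8a (chromosome 16, 19355048 to 19376776) was at 46.2, 45.4 and 42.2 FPKM in EN libraries, against 39.97, 39.4 and 39.4 FPKM in EC libraries. Rab8b (chromosome 8, 72638003 to 72714664) was at 27.5, 28.2 and 28.7 FPKM in EN libraries, against 30.5, 32.5 and 32.9 FPKM in EC libraries. In Rab8a all EN libraries were above, and in Rab8b all were below, the EC libraries. The log2 change was 0.17 for Rab8a (SE 0.044, limma adjusted p = 0.049) and -0.18 for Rab8b (SE 0.045, limma adjusted p = 0.044). Rab8a lost its call in 5 of the 6 fits with 1 library left out (adjusted p up to 0.158, without EN replicate 2) and Rab8b in 4 (up to 0.144, without EC replicate 2). With all libraries Rab8a also lost it on the TPM scale (limma adjusted p = 0.0532), with quantile normalization (0.0501), total-read scaling (0.0509), the replicate block (0.0533), no filter (0.0729) and no variance trend (0.0871). Rab8b lost its call with median centring (limma adjusted p = 0.0515), total-read scaling (0.0507), no filter (0.0634) and no variance trend (0.0741), so both calls lie close to the threshold.

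The Rabs best known from regulated secretion did not pass. Rab27a and Rab27b, which dock secretory granules and multivesicular bodies at the surface and are known for their part in exosome release, averaged 2.75 ± 0.0273 and 9.94 ± 0.741 FPKM in EN, against 3.15 ± 0.324 and 9.53 ± 1.48 FPKM in EC (SD, n = 3 each). Their adjusted p were 0.334 and 0.722, with 95% intervals of the log2 change of -0.37 to 0.08 and -0.19 to 0.31. Rab3a, a Rab of synaptic and secretory vesicles, varied widely, with 3.16, 4.38 and 1.62 FPKM in EN libraries and 3.25, 2.17 and 2.07 FPKM in EC libraries. Its highest and its lowest library were both EN. The gene Mpv17l2, at a mean of 11.7 FPKM, overlaps the Rab3a model on the other strand. Rab3d, of secretory granules, averaged 12.6 FPKM in EN and 12.9 FPKM in EC, and Rab13, of tight junctions and the surface, 36.6 FPKM in EN and 37.7 FPKM in EC, and neither passed.

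Of the 6 tested Rabs outside these routes, 2 fell, none rose and 4 did not pass. Rab38, which with Rab32 builds lysosome-related organelles such as melanosomes (chromosome 1, 152072665 to 152153449), was at 4.03, 4.38 and 4.68 FPKM in EN libraries, against 6.15, 6.55 and 5.66 FPKM in EC libraries. The groups did not overlap, with means of 4.36 ± 0.323 FPKM in EN and 6.12 ± 0.442 FPKM in EC (SD, n = 3 each), and the log2 change of -0.41 was the lowest of all members (SE of 0.082, limma, adjusted p = 0.024). Leaving out EC replicate 2 gave 0.0895, and the call was lost in 4 of the 6 fits. Rab32 itself averaged 29.1 FPKM in EN and 27.9 FPKM in EC and did not pass. Rab23, a negative regulator of Hedgehog signalling (chromosome 9, 38470298 to 38495176), was at 31.6, 30.6 and 31.6 FPKM in EN libraries, against 35.4, 35.7 and 34.0 FPKM in EC libraries. It was lower in every EN library (log2 change -0.16, SE 0.040, limma adjusted p = 0.042), and this call was lost whichever library was left out (adjusted p up to 0.147, without EN replicate 2). Rab28, a Rab of the cilium, was at 49.5, 50.4 and 48.8 FPKM in EN libraries, against 53.8, 58.3 and 54.3 FPKM in EC libraries, and missed the threshold (log2 change -0.16, adjusted p = 0.052). Rab40b and Rab40c, which join ubiquitin ligases, had log2 changes of -0.32 and -0.11 and adjusted p of 0.094 and 0.283.

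**Figure D3:**
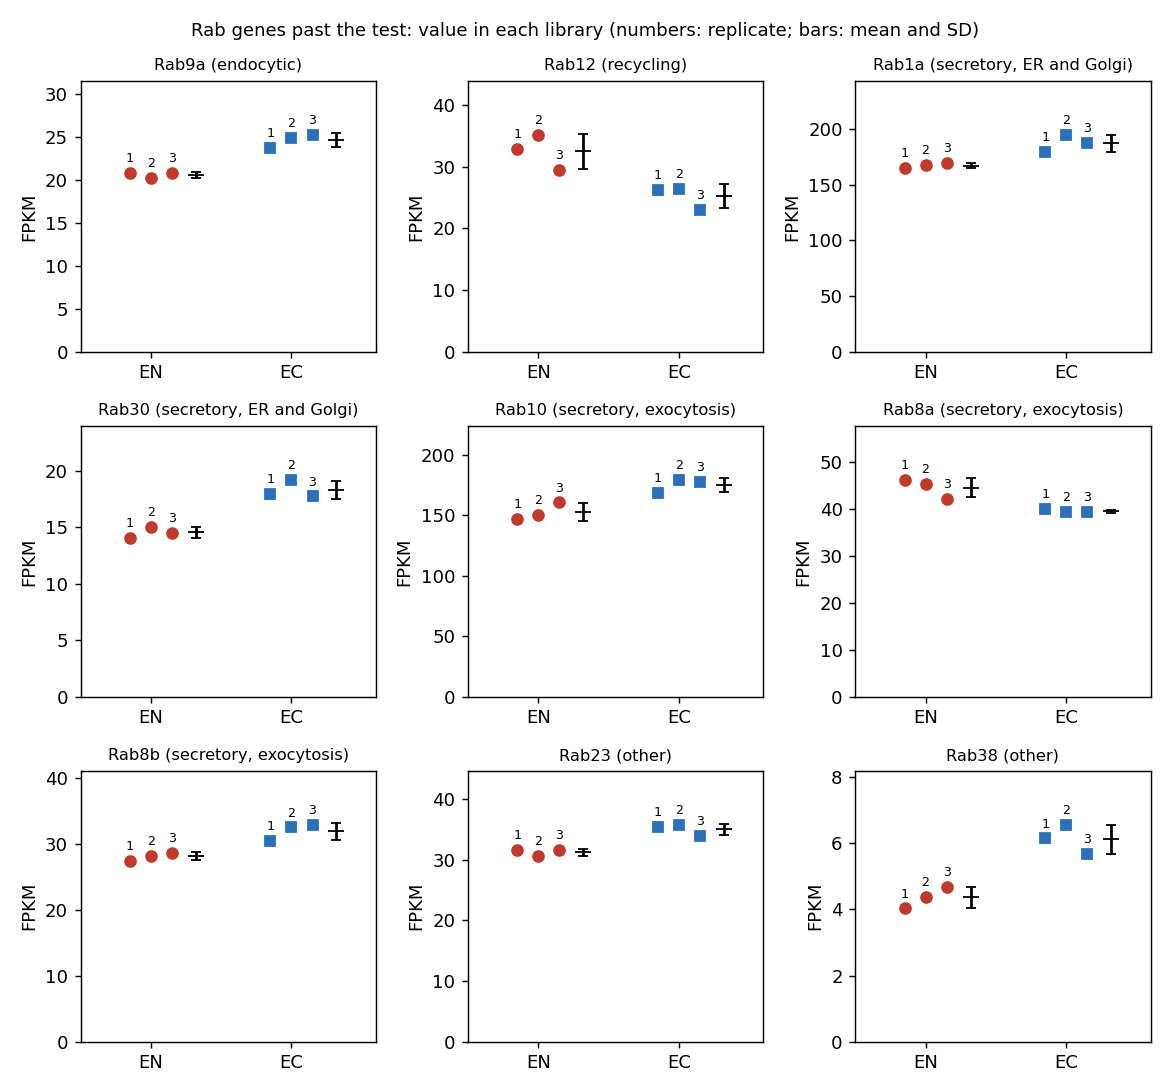
FPKM in each library of the 9 Rab genes past the test, EN (red circles) left of EC (blue squares) with the replicate number at each point and the mean and SD beside each group. All 9 genes have no overlap between the groups. The gap is narrow beside the level: for Rab8a the lowest EN value is 42.2 FPKM and the highest EC value 39.97 FPKM.

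Because paralogues share a route, their balance was read as the ratio of FPKM within each library. Of 13 pairs, 5 (38.5%) had ratios that did not overlap between the groups. The 37.9% of all tested genes that did not overlap is a share of single genes, and no such share was made for ratios. Nothing is read from the count. The ratios are given as a description with no test, for the pairs with a member past the test. Rab8a to Rab8b ran from 1.47 to 1.68 in EN libraries and from 1.20 to 1.31 in EC libraries, which follows from Rab8a being above and Rab8b below in every EN library. Rab32 to Rab38 ran from 6.42 to 6.99 in EN libraries and from 4.39 to 4.93 in EC libraries. The ratio of Rab9a to Rab9b overlapped, at 7.58 to 8.75 in EN libraries and 8.18 to 10.3 in EC libraries. The other pairs that did not overlap have no member past the test. They were Rab5c to Rab5b and Rab27b to Rab27a, higher in EN, and Rab6a to Rab6b, lower in EN.

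The levels of each route were also summed over its members. Endocytic Rabs summed to 674.4, 656.5 and 658.1 FPKM in EN libraries, against 642.3, 639.1 and 622.0 FPKM in EC libraries. Rabs of exocytosis summed to 284.7, 293.6 and 295.4 FPKM in EN libraries, against 307.0, 314.2 and 318.2 FPKM in EC libraries, and those of the endoplasmic reticulum and Golgi to 545.0, 556.8 and 553.7 FPKM in EN libraries, against 569.4, 578.0 and 569.6 FPKM in EC libraries. The endocytic sum was thus higher, and both secretory sums lower, in every EN library. The recycling sum overlapped, with means of 306.5 FPKM in EN and 305.0 FPKM in EC. Genes with high FPKM weigh most in such a sum, and no test was made on it.

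The start regions of the members that moved are shown because genes that share a direction can be compared there. RefSeq windows of 300 bases, 250 before and 50 after the start on the GRCr8 assembly, were matched by symbol for 46 of the 56 members and 7 of the 9 past the test. This assembly is not the build of the expression table. The 4 printed are the paralogues that passed in opposite directions (Rab8a and Rab8b) and the lower genes with the smallest adjusted p (Rab30 and Rab9a). Capitals mark the motifs searched on both strands, the GC box GGGCGG, the CCAAT box CCAAT, the E-box CACGTG, the cAMP response element TGACGTCA, the AP-1 motif TGANTCA and the TATA box TATAAA. No motif match overlapped another in these windows.
Rab8a, higher in EN, GRCr8 chr16:17709363-17709662, minus strand: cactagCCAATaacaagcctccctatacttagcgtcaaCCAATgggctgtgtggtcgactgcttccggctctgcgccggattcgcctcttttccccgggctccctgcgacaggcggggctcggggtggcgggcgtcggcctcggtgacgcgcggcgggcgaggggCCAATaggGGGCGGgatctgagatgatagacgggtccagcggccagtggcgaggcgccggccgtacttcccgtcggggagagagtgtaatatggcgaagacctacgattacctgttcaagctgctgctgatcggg
Rab8b, lower in EN, GRCr8 chr8:76417499-76417798, minus strand: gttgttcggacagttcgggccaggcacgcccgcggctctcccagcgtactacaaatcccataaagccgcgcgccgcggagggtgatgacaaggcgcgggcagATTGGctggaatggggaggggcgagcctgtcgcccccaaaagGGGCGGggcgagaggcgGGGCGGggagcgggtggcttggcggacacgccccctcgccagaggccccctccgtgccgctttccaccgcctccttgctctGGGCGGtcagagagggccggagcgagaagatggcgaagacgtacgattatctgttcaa
Rab30, lower in EN, GRCr8 chr1:156215887-156216186, plus strand: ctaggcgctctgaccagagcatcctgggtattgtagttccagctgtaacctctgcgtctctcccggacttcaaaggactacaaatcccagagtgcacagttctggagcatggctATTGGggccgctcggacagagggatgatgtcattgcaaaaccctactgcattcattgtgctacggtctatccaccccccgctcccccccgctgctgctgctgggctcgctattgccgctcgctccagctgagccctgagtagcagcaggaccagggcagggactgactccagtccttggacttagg
Rab9a, lower in EN, GRCr8 chrX:31609839-31610138, plus strand: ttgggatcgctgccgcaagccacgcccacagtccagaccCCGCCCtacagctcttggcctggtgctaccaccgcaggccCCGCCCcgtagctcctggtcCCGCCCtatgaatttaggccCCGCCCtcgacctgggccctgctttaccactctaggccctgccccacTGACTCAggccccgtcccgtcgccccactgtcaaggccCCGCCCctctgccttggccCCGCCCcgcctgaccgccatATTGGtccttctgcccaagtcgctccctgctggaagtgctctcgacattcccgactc

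Rab8a has 3 CCAAT boxes and 1 GC box, and Rab8b has 1 CCAAT box and 3 GC boxes. Rab9a has 6 GC boxes, 1 CCAAT box and 1 AP-1 motif, whereas Rab30 has 1 CCAAT box and none of the other motifs. The same 6 motifs were not found at all in the window of Rab12, the gene that rose most among those past the test. Over the members, a GC box was in 36 of 46 windows (78.3%), against 33.1% of 33469 windows in the whole table, and a TATA box was in 0 of 46, against 14.2%. A CCAAT box was in 17 of the 46 (37.0%), against 37.5%, and in 4 of the 5 lower members with a window. An E-box was in 4 of the 46 (8.70%), against 6.42%. The median GC content was 63.3% for the members and 51.7% for all windows. It was 64.7% for the 37 tested members with a window and 57% for the 9 not tested. The windows of the whole table include genes expressed or not in these cells. No set of windows matched for expression was compared, so these shares are not read as a trait of Rab genes. A match describes the letters of a window and does not show that a factor binds there.

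The genes that work with Rabs were taken from lists of GDIs and prenylation enzymes, GEFs, GAPs and effectors. Of 120 tested, 7 rose, 10 fell and 103 did not pass, so 14.2% passed, against 14.4% of all tested genes. The median log2 change was -0.02. All 17 calls were lost in at least 3 of the 6 fits with 1 library left out. In limma, 0 of the 120 passed without EN replicate 1, EN replicate 2 or EC replicate 2. Without EC replicate 3, 1 passed, and without EC replicate 1 there were 9.

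Among the genes for GDIs, escort and prenylation, Gdi2, a GDI that extracts Rabs from membranes, was the most abundant, and it was also the highest of all the partner genes. It averaged 274.6 ± 23.9 FPKM in EN and 291.2 ± 12.6 FPKM in EC (SD, n = 3 each) and did not pass (log2 change -0.09, limma adjusted p = 0.405).

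Among GEFs, 1 of 32 tested genes rose, 1 fell and 30 did not pass. Sbf1, a DENN domain protein, averaged 45.3 ± 0.504 FPKM in EN and 39.6 ± 1.89 FPKM in EC (SD, n = 3 each, limma adjusted p = 0.035, and 0.114 at most with 1 library left out). Dennd6a, a DENN protein that acts on Rab14, averaged 9.50 ± 0.159 FPKM in EN and 11.4 ± 0.781 FPKM in EC (SD, n = 3 each, limma adjusted p = 0.0499, and 0.154 at most). The highest gene of the list, Ccz1b, of the exchange factor for Rab7, averaged 62.5 FPKM in EN and 63.1 FPKM in EC and did not pass.

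Of 28 tested GAPs, 3 rose, 3 fell and 22 did not pass. Tbc1d20, a GAP for Rab1, was at 49.4, 51.5 and 47.8 FPKM in EN libraries, against 43.0, 44.1 and 41.7 FPKM in EC libraries, with no overlap (log2 change 0.20, limma adjusted p = 0.027). Sgsm3 and Tbc1d10b also rose, by 0.26 and 0.24 on the log2 scale, while Tbc1d22a fell by 0.40, the largest fall of the list. Their adjusted p lay between 0.022 and 0.028, and between 0.080 and 0.101 at the highest with 1 library left out, Tbc1d20 included. Tbc1d1, a GAP for Rab10 named after its value was seen, fell by 0.16 (adjusted p = 0.047, and 0.145 at most).

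Of 53 tested effectors and kinases, 3 rose, 5 fell and 45 did not pass. Lrrk2, a kinase known to phosphorylate a group of Rabs that includes Rab8a, Rab10 and Rab12, was at 10.2, 10.1 and 10.6 FPKM in EN libraries, against 12.7, 12.7 and 13.1 FPKM in EC libraries. All EN libraries were below all EC libraries (log2 change -0.29, limma adjusted p = 0.015, and 0.068 at most with 1 library left out). Rufy1, an effector of Rab4 and Rab14 on endosomes, averaged 34.2 ± 0.604 FPKM in EN and 29.0 ± 1.12 FPKM in EC (SD, n = 3 each, limma adjusted p = 0.020, and 0.079 at most). Appl1 of early endosomes and Ehbp1, an effector of Rab8 and Rab10, fell by 0.21 and 0.24 on the log2 scale (limma, adjusted p = 0.033 and 0.027, and 0.107 and 0.097 at most). Uso1, a Golgi tether held by Rab1 and the highest of the list, averaged 53.5 ± 3.65 FPKM in EN and 62.3 ± 1.42 FPKM in EC (SD, n = 3 each, limma adjusted p = 0.042, and 0.132 at most).

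Among the tested Rab genes, the log2 change tended to be lower in longer gene models. Of the 16 tested members under 1500 bases, 12 had a positive and 4 a negative log2 change, with a median of 0.06, and of the 28 at or over 1500 bases, 8 had a positive and 20 a negative one, with a median of -0.09 (the 1500 bases were chosen after the values were seen). Over all tested genes the medians were 0.02 under and -0.01 at or over that length. Of the 3703 under it, 2018 changes were positive and 1685 negative. Of the 8495 at or over it, 4007 were positive and 4488 negative. Spearman's rho between length and log2 change was -0.30 across the 44 genes and -0.09 across the 12198, a description across genes, which are not independent and share the same 6 libraries. After each library's own trend with length was removed it was -0.19 across the 44. The count of calls was then again 9 (1822 over all tested genes), of which 8 were among the 9, with Rab28 gained and Rab23 lost. The part of length in these results was not tested further.

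**Figure D4:**
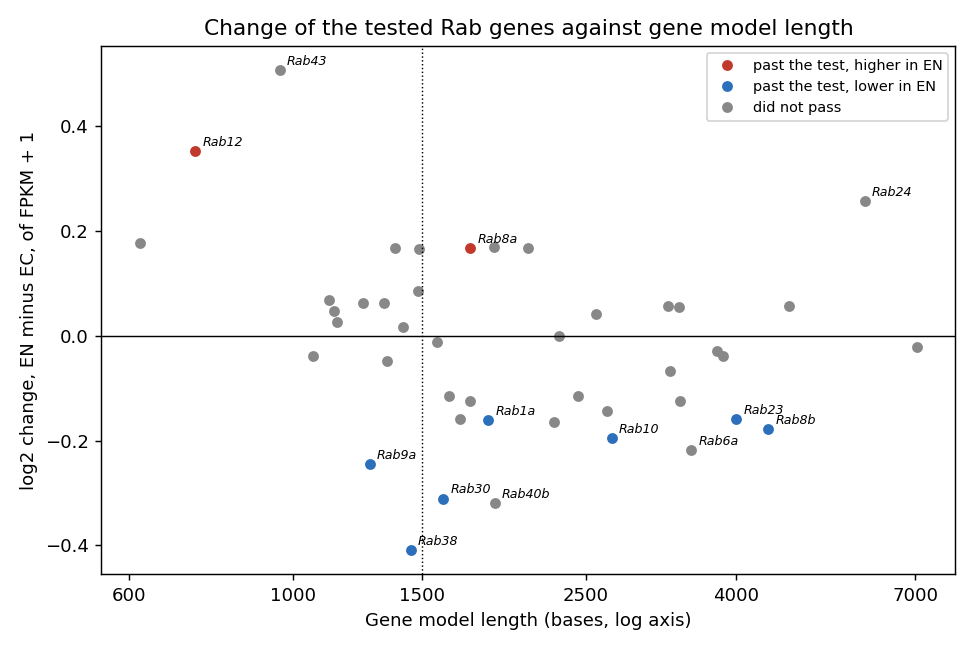
Log2 change, EN minus EC, of the 44 tested Rab genes (y axis) against gene model length in bases (x axis, log scale), with the dotted line at 1500 bases, red for genes past the test and higher in EN, blue for genes past it and lower, grey for the rest. Rab12 and Rab43 are high and under 1500 bases, Rab9a and Rab38 are low and under it, and the other 5 genes that fell are over it.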

How the data were processed

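Per the labels' protocols, total RNA was isolated with Trizol and the TruSeq RNA kit of Illumina was used. The authors deposited 1 table of FPKM for 33350 gene models. The tool HISAT2 2.0.5 and the build Rnor_6.0 are named, per the submitters' processing notes. For the counting tool, annotation release and strand setting the sources used here give nothing. FPKM times gene length gave whole reads for 100% of non-zero values (within 0.001), and depths come from these reads.

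EN and EC were compared by limma (version 3.58.1, under R 4.3.3) with the 2 groups as the design and a trend of variance on level. Values were log2(FPKM + 1), and the 12198 genes averaging 1 FPKM or more over the 6 libraries entered. It was two-sided, with an adjusted p under 0.05 as the threshold. It was run on simulated data in which 200 genes of at least 5 FPKM were changed by 1.25-fold or more. No result of that run is given here, and smaller changes, such as the 1.12-fold fall of Rab1a, were not simulated. Members, lists, routes and tests were chosen with earlier results of these data known. Of 149 entries in the partner lists, 147 matched, 3 of them by synonym in the RefSeq gene table (GRCr8), and they gave 146 models. Values in every library are given for members past the test and for the 2 highest and the 2 with the smallest adjusted p of each route, and partner genes are the highest and up to 4 past the test of each list. Other genes named with values were chosen after these were seen. Some genes that these rules name are not reported here.

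Alternatives were other pseudocounts, filters and scalings, leaving out each library, the replicate number as a block, a fit with no variance trend, array weights, voom on the reads and protein-coding models only. Removal of the length trend (lowess, span 0.5) was added after the data were seen.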

Additional observations from a re-analysis of the deposited data

How the results depend on the processing

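The number of Rab genes past the test was 9 with all libraries, and it was 0 to 13 with 1 library left out. It was 2 without an expression filter, 3 without the variance trend, 14 with the replicate block, 15 with a mean of at least 5 FPKM, with voom on the reads or with protein-coding models only, and 16 with array weights. The count over all 12198 tested genes moved too. It was 1754 in the main fit, 1019 without the trend, 1907 with the block, 2347 with voom and 3849 with array weights. Without a filter 866 of 20495 genes passed, with the 5 FPKM minimum 2022 of 9204, and with protein-coding models only 1977 of 10815. For the partner genes the number past the test was 17, and 0 to 14 with 1 library left out, 4 without a filter, 6 without the trend and 37 with array weights. With total-read scaling the partner genes split into 7 higher and 6 lower, against 7 and 10. All tested genes split into 1020 higher and 720 lower with that scaling, against 883 and 871. Deviations from the group means correlated at 0.088, -0.095 and -0.020 between EN and EC libraries of the same number, 1 to 3. Between libraries of unlike number they correlated at -0.111 to 0.134. With 3 libraries per group this cannot decide whether the numbers pair the libraries, which the labels do not say. With the block, 7 of the 14 genes called were among the 9. Each of the 9 called genes kept its direction in all 20 alternatives. Changes near 0 turned sign: Rab14 was -0.11 to 0.012 with 1 library left out (positive without EN replicate 1), and Rab7a was 0.015 on the TPM scale, 0.0018 with median centring, 0.019 with quantile normalization, 0.023 with voom, 0.022 with total-read scaling, 5.7e-04 with the length trend removed, and -0.0062 to 0.0042 with 1 library left out (positive without EN replicate 2 or EC replicate 1), against -0.0010. A larger change turned sign too: Rab3a, at 0.17 in the main fit, was -0.067 to 0.45 with 1 library left out. So did the changes of Rab36, Rab27b, Rab7b, Rab9b, Rab3d, Rab2b, Rab4a and Rab5a in those fits. The cause of these shifts was not tested. Models on the other strand overlap 7 tested members, Rab24, Rab2b, Rab3a, Rab5a, Rab6a, Rab22a and Rab40c, and their reads cannot be told apart if strand was not used. The models that overlap Rab24 and Rab22a are listed at 0 FPKM. Mpv17l2, over Rab3a, averaged 11.7 FPKM against 2.78 FPKM for Rab3a. Tox4, over Rab2b, averaged 29.8 FPKM against 17.9 FPKM for Rab2b. None overlaps the 9 called genes on the other strand. On the same strand, models listed at 0 FPKM overlap Rab8b, which is among the 9, and Rab11a. A same-strand model at 0.92 FPKM overlaps Rab40b.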

Other observations

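Sytl2, which encodes an effector of Rab27, varied widely within both groups. It was at 23.0, 7.28 and 1.97 FPKM in EN replicates 1 to 3, against 1.09, 1.35 and 9.33 FPKM in EC replicates 1 to 3 (named after its values were seen). The groups overlapped, and it did not pass (log2 change 1.18, limma adjusted p = 0.382). The table holds 2 models of this symbol, and 1 of them was tested, with these values.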
